A study of Rattus norvegicus with 30 samples.

Results

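The genes described here encode collagens, laminins and other proteins of the extracellular matrix of the rat gut. They were chosen by name: every probe set with exactly 1 gene symbol for a collagen chain, a laminin chain or a nidogen, or for fibronectin (Fn1), periostin (Postn), Sparc, fibrillin 1 (Fbn1), perlecan (Hspg2), matrix Gla protein (Mgp), decorin (Dcn), lumican (Lum), biglycan (Bgn) or versican (Vcan). This gave 91 probe sets for 63 genes, out of 14217 genes named on the array. Where a gene had several probe sets, the one with the highest mean over the 30 arrays stood for it. By role the 63 genes were 11 fibrillar collagens, 5 basement membrane collagens, 13 laminin, nidogen and perlecan genes, 25 other collagens, 5 glycoproteins and 4 proteoglycans.

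Gene expression was measured in flushed, snap-frozen sections of stomach, jejunum and colon; the rats were DA females aged 10 weeks. Rats received 1 intraperitoneal dose of irinotecan (200 mg/kg), a topoisomerase I inhibitor that damages dividing cells of the gut, under light halothane anaesthesia, and were killed 1, 6, 24 or 72 h later. The 0 h rats were not dosed, and the labels do not say if these controls were anaesthetised or sham injected. RNA of 3 rats was pooled for each Affymetrix Rat 230 2.0 array, there were 2 arrays for each of 15 groups (3 tissues at 5 times), and the 6 rats of a time supplied all 3 tissues. All p-values therefore measure the spread between pools, which hides the spread between single rats.

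The matrix is the scaffold that holds gut cells in place. Fibrillar collagens form the strong fibres of the submucosa and lamina propria, while type IV collagen, laminins, nidogens and perlecan form the thin basement membrane under the epithelium and around muscle cells and vessels. Most of these proteins are made by fibroblasts, smooth muscle and endothelium rather than by the epithelium, and many are renewed when the gut wall heals. In such bulk samples, more cells of a type and more RNA per cell cannot be told apart.

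The tissue labels matched their markers. At 0 h the median log2 signal of 7 gastric epithelium markers was 13.33 to 13.50 in stomach and at most 6.92 elsewhere, that of 7 enterocyte markers was 12.91 to 13.04 in jejunum and at most 9.21 elsewhere, and that of 6 colon epithelium markers was 12.29 to 12.31 in colon and at most 9.82 elsewhere. A few arrays stood apart. The GAPDH control signal at the 3′ end exceeded that at the 5′ end by 0.82 log2 units on jejunum 24 h replicate 1 and by 0.56 on stomach 24 h replicate 1, and by at most 0.38 on the other 28 arrays, so RNA on these 2 arrays was more degraded by this measure. Transcripts of pancreatic acinar cells, a sign of neighbouring pancreas, were high on stomach 72 h replicate 1 (median 13.43, against at most 7.38 at 0 h), colon 72 h replicate 2 (12.27, against at most 6.88) and colon 6 h replicate 1 (9.44). Gastric epithelium markers were high on colon 24 h replicate 1 (median 9.41). Counts that change without these arrays are given with them below.

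To show what the start regions of some of the genes that rose look like, 5 stretches just before annotated transcription starts were read from RefSeq's rat assembly GRCr8, which held a start region for 48 of the 63 genes. Capitals mark 3 motifs on either strand: the CCAAT box (CCAAT, or ATTGG), the TATA box (TATAAA, or TTTATA) and the GC box (GGGCGG, or CCGCCC), to which Sp1-type factors bind. The 250 bases before the start are shown for Col1a2 (a chain of type I collagen; chr4:33518307-33518556, + strand), Col5a2 (a chain of type V collagen, which nucleates fibrils; chr9:55090152-55090401, - strand), Lamc1 (the laminin gamma 1 chain; chr13:68051987-68052236, - strand) and Postn (periostin; chr2:140677811-140678060, + strand). Col4a1 and Col4a2 encode the 2 common chains of type IV collagen and lie head to head, and the 76 bases between their starts (chr16:84885521-84885596, + strand) are shown whole.
Col1a2: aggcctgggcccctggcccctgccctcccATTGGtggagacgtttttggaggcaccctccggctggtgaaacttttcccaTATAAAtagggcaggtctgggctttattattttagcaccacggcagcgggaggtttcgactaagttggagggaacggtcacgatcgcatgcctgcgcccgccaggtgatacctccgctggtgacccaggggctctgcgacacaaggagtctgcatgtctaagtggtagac
Col5a2: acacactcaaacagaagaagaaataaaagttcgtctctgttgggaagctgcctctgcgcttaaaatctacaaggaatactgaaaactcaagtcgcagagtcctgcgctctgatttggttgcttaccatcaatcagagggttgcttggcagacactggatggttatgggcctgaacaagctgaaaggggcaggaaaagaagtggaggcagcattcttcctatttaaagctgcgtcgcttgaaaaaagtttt
Lamc1: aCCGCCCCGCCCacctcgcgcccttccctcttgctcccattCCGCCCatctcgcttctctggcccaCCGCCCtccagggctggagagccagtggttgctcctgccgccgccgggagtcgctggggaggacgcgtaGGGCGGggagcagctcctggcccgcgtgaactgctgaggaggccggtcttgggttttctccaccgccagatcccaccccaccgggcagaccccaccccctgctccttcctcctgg
Postn: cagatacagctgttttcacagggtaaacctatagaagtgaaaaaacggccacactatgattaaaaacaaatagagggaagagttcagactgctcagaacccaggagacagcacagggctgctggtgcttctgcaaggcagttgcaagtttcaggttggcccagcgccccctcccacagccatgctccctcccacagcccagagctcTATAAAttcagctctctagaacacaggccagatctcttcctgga
Col4a1-Col4a2: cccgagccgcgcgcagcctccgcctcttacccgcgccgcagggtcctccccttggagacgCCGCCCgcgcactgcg

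These 5 regions did not share a motif: Col1a2 held 1 CCAAT box and 1 TATA box, Postn held 1 TATA box, Lamc1 held 5 GC boxes, the Col4a1 and Col4a2 region held 1 GC box, and Col5a2 held none of the 3. Over the 48 genes, 14 held a CCAAT box (29.2%, against 34.0% of all 33469 start regions of that length) and 6 held a TATA box (12.5%, against 12.9%). A GC box was held by 26 (54.2%, against 30.5%), namely by 9 of the 20 that rose in the jejunum at 72 h and by 17 of the 28 that did not. The 33469 regions include genes that make no protein. A match describes these letters only and is not a site of binding.

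Undosed tissue was compared first, because it shows where each matrix gene was high before the drug. The jejunum had the lowest mean signal in 40 of the 63 genes, against 9280 of all 31042 probe sets, and the stomach had the highest in 38, against 9372 of them. By limma's test (1 fit of all 30 arrays, adjusted p under 0.05), 33 genes were lower and 2 higher in jejunum than in stomach (background 32.2% of all probe sets in either direction, 17.3% lower and 14.9% higher). Against colon, 26 were lower and 13 higher in jejunum (background 45.7%, with 19.9% lower and 25.8% higher). Of the 13 higher, 8 were among the 20 matrix genes dimmer than the median probe set. Of all such dimmer probe sets 34.3% were higher in jejunum than in colon. Colon and stomach differed in 20 genes, 16 lower and 4 higher in colon (background 33.1%), and in 9 when either stomach 0 h replicate 2 or colon 0 h replicate 1 was left out.

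Of the 11 fibrillar collagens 5 were lower and 1 (Col27a1) was higher in jejunum than in stomach, and 4 were lower and 2 higher in jejunum than in colon. Col1a1, the main chain of type I collagen, read 10.03 and 11.41 on the stomach arrays, 8.20 and 7.97 in jejunum and 9.44 and 9.43 in colon. It was 6.24-fold lower in jejunum than in stomach (log2 difference -2.64 ± 0.36 SE, limma adjusted p = 1.11e-05) and 2.56-fold lower than in colon (-1.35 ± 0.36, adjusted p = 0.00551). Col3a1, the type III collagen of elastic, distensible tissue, read 11.78 and 12.58 in stomach, 10.05 and 10.02 in jejunum and 12.10 and 11.86 in colon, so stomach and colon overlapped and jejunum lay apart. Dcn, a proteoglycan that decorates collagen fibrils, followed another order: 13.43 and 13.51 in stomach, 10.41 and 10.80 in jejunum and 10.82 and 10.62 in colon. Jejunum and colon overlapped for Dcn, and both were lower than stomach, by 7.31-fold (-2.87 ± 0.35, adjusted p = 3e-06) and by 6.73-fold (-2.75 ± 0.35, adjusted p = 8.2e-06).

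The highest mean lay in the jejunum for 13 matrix genes and in the colon for 12, against 12854 and 8816 of all probe sets. Among the 43 matrix genes brighter than the median probe set it lay in the jejunum for 3 and in the colon for 11. Most genes highest in the jejunum were thus dim. Fn1, a glycoprotein that links cells to collagen, read 11.11 and 10.87 in colon, 9.76 and 10.36 in stomach and 8.62 and 8.46 in jejunum, so the 3 tissues did not overlap. It was 5.44-fold lower in jejunum than in colon (-2.44 ± 0.19, adjusted p = 1.14e-08). Lamb3, a chain of the laminin that anchors epithelium, was 2.09-fold higher in colon than in stomach (1.06 ± 0.31, adjusted p = 0.0124). Nid2, a nidogen that links laminin to type IV collagen, was among those highest in the jejunum: it read 8.35 and 8.36 in jejunum, 7.48 and 7.70 in stomach and 7.21 and 7.29 in colon. That was 1.70-fold higher in jejunum than in stomach (0.76 ± 0.11, adjusted p = 2.12e-05) and 2.14-fold higher than in colon (1.10 ± 0.11, adjusted p = 3.07e-07). Smooth muscle markers also differed between the tissues, with a median over 10 genes of 10.54 and 10.80 in jejunum, 12.13 and 12.52 in stomach and 12.42 and 12.29 in colon. Their part in the lower jejunal matrix signal was not tested.

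**Figure D1:**
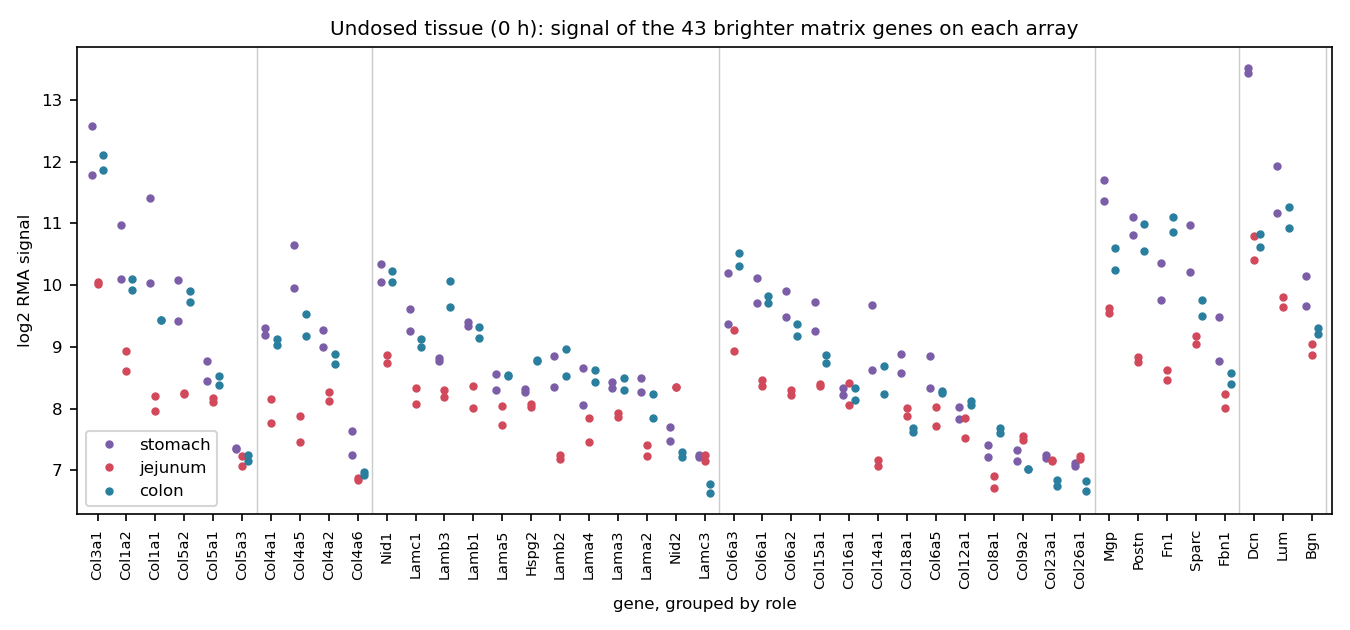
Log2 signal of the 43 matrix genes whose mean over all arrays exceeded the median probe set, on each of the 6 undosed arrays (points; 2 arrays for each of stomach, jejunum and colon), grouped by role. The jejunum points lie lowest for most genes, while Nid2 is highest in the jejunum, and levels of different genes should not be compared because they come from different probes.

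After irinotecan the most matrix genes passed limma's test in the jejunum at 72 h. There 27 of the 63 genes rose and 6 fell (limma fit of the 10 jejunum arrays, adjusted p under 0.05). The background was 23.9% of all probe sets in either direction, 11.9% higher and 12.0% lower. The median change of the 63 genes was 0.30 on the log2 scale, against -0.07 over all probe sets. Brighter probe sets rose more often in general, so the share was also read among brighter probe sets alone: 25 of the 43 brighter matrix genes rose and 4 fell, against 20.0% and 8.96% of all probe sets above the median. Of the 20 dimmer matrix genes 2 rose and 2 fell, against 593 and 2322 of the 15521 dimmer probe sets. Both 72 h arrays exceeded the other 8 jejunum arrays in 29 genes (background 14.3%) and lay below them in 9 (background 20.9%).

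**Figure D2:**
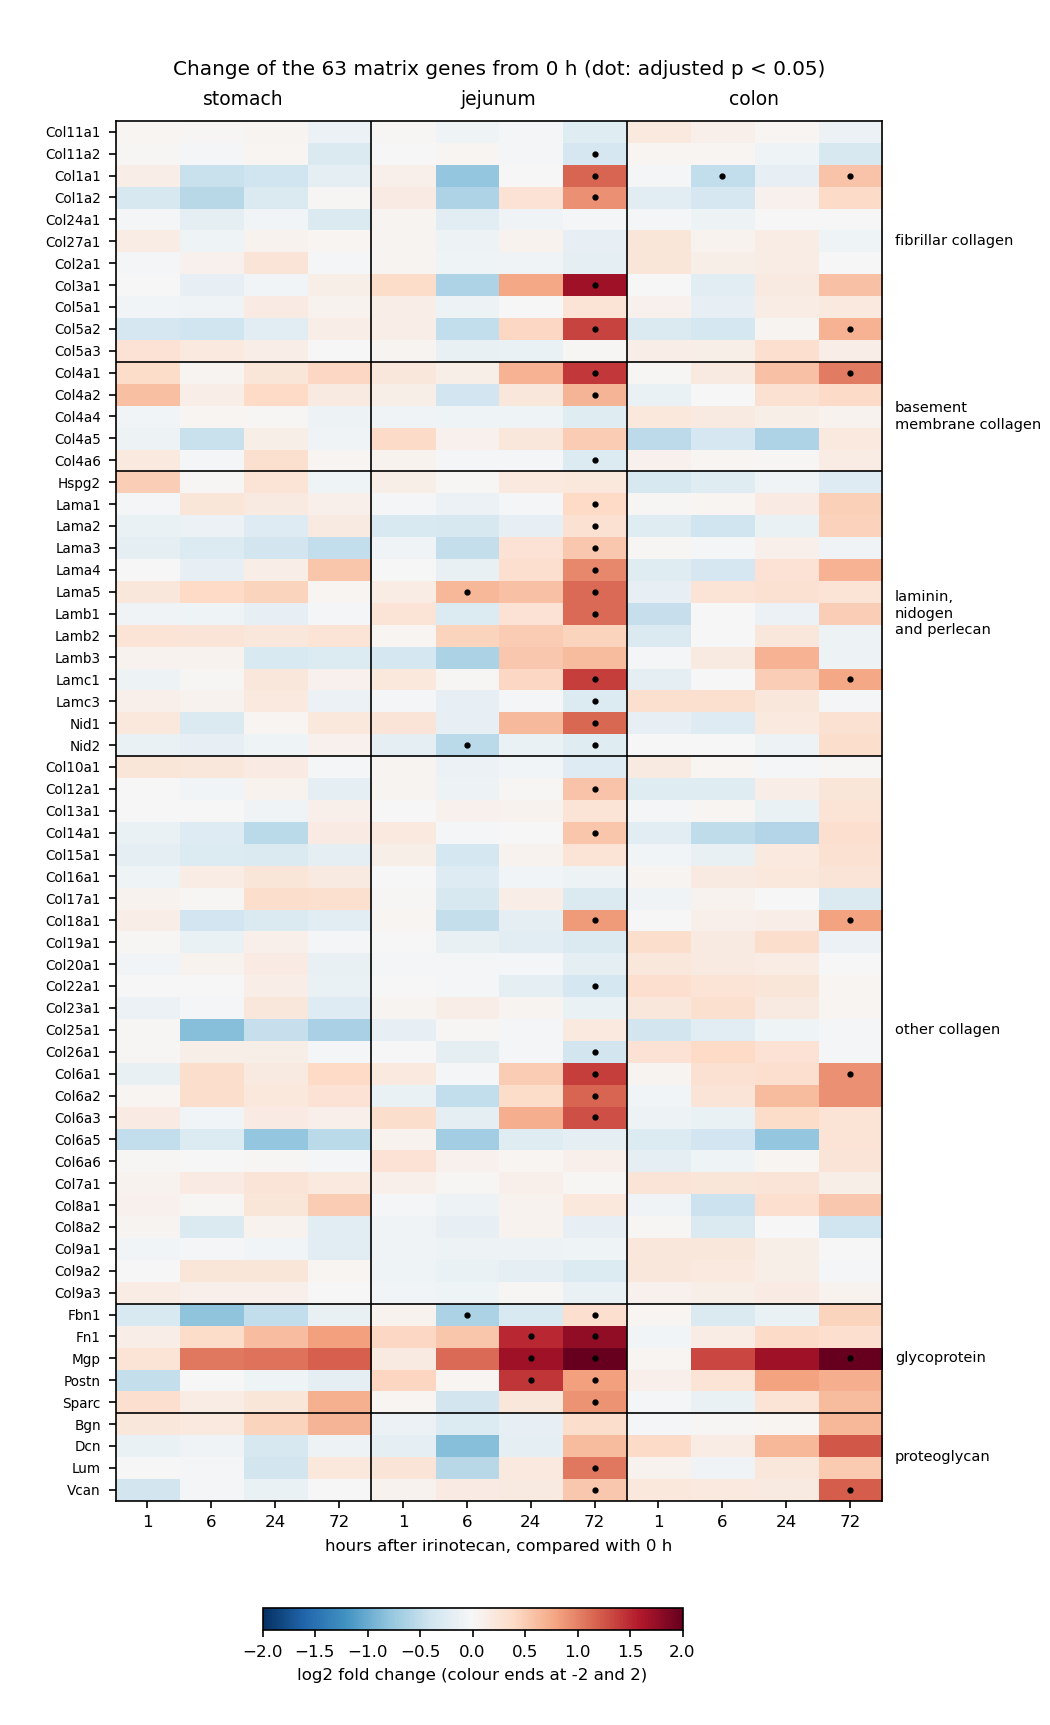
Log2 change from 0 h of the 63 matrix genes (lines, grouped by role) at 1, 6, 24 and 72 h in stomach, jejunum and colon (columns); red is higher than at 0 h, blue lower, and a dot marks an adjusted p under 0.05. Most dots stand in the jejunum at 72 h (33 genes), 8 stand in the colon at 72 h and none in the stomach.

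Of the 11 fibrillar collagens 4 rose in the jejunum at 72 h and 1 fell. Col3a1 read 11.83 and 11.64 at 72 h against 10.05 and 10.02 at 0 h, a 3.26-fold rise (1.70 ± 0.22 SE, limma adjusted p = 0.00193). Col5a2 read 9.64 and 9.55 against 8.26 and 8.24, a 2.54-fold rise (1.34 ± 0.17, adjusted p = 0.00174). In both genes the 72 h arrays lay above all other jejunum arrays, the 24 h arrays included. Col1a1 read 9.48 and 9.01 against 8.20 and 7.97 (1.16 ± 0.27, adjusted p = 0.017), and Col1a2 9.79 and 9.58 against 8.93 and 8.61 (0.92 ± 0.16, adjusted p = 0.00596). The single chain that fell, Col11a2 of the type XI collagen of cartilage, changed by -0.33 ± 0.08 (adjusted p = 0.0229) from a signal near the array median. The other 6 did not pass the test, with changes from -0.25 to 0.28.

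Of the 5 basement membrane collagens 2 rose and 1 fell. Col4a1 read 9.42 and 9.34 at 72 h against 8.15 and 7.77 at 0 h, a 2.67-fold rise (1.42 ± 0.18, limma adjusted p = 0.00167), and its head-to-head partner Col4a2 read 9.01 and 8.72 against 8.27 and 8.12 (0.67 ± 0.13, adjusted p = 0.00854). Of the other type IV chains measured Col4a6 fell (-0.28 ± 0.09, adjusted p = 0.0473), while Col4a5 (0.51 ± 0.23) and Col4a4 (-0.25 ± 0.09) did not pass. The starts of Col4a5 and Col4a6, also head to head, are 1414 bases apart. Of the 13 laminin, nidogen and perlecan genes 8 rose and 2 fell.

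Lamc1, the gamma chain of most laminins, read 9.64 and 9.53 at 72 h and 8.34 and 8.07 at 0 h, a 2.61-fold rise (1.38 ± 0.15, limma adjusted p = 0.000868). Its partner Lamb1 read 9.27 and 9.38 against 8.37 and 8.01 (1.13 ± 0.30, adjusted p = 0.0273). Among alpha chains, which set where a laminin is found, Lama5 of epithelial basement membranes read 8.97 and 9.07 against 8.04 and 7.74 (1.13 ± 0.14, adjusted p = 0.00165). The other 2 probe sets of Lama5 are dimmer and changed by -0.14 and -0.17, which did not pass. Lama4 of vessel and muscle basement membranes rose by 0.95 ± 0.17 (adjusted p = 0.00585), Lama3 by 0.54, Lama1 by 0.40 and Lama2 by 0.30. The nidogens parted: Nid1 rose from 8.74 and 8.86 to 10.01 and 9.88 (1.15 ± 0.12, adjusted p = 0.000733), while Nid2 fell from 8.35 and 8.36 to 8.13 and 8.08 (-0.25 ± 0.07, adjusted p = 0.041). Neither gene's arrays overlapped between the times, and the second probe set of Nid1, dimmer, changed by 0.01. Lamc3 fell by 0.28, and Hspg2, Lamb2 and Lamb3 did not pass.

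Among the 25 other collagens 6 rose and 2 fell. Type VI collagen, which forms beaded filaments around cells, gave 3 of the 6: Col6a1 rose 2.60-fold (1.38 ± 0.25, limma adjusted p = 0.00706), Col6a3 2.46-fold (1.30 ± 0.13, adjusted p = 0.000711) and Col6a2 2.24-fold (1.17 ± 0.25, adjusted p = 0.0134). Its newer chains Col6a5 and Col6a6 did not pass. Col18a1, whose fragment is endostatin, rose by 0.85 ± 0.24, and the fibril-associated Col12a1 and Col14a1 rose by 0.57 and 0.55. Col22a1 and Col26a1 fell by 0.35 and 0.36. Of the rest, the epithelial anchoring collagen Col17a1 had the lowest change (-0.29 ± 0.10, adjusted p = 0.0552).

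All 5 glycoproteins rose at 72 h. Mgp, an inhibitor of calcification made by smooth muscle and fibroblasts, read 12.10 and 12.11 against 9.56 and 9.62, a 5.72-fold rise (2.52 ± 0.28, limma adjusted p = 0.00103) and the largest among the 63 genes. Fn1 read 10.21 and 10.43 against 8.62 and 8.46, a 3.42-fold rise (1.78 ± 0.15, adjusted p = 0.000564). Sparc, a collagen-binding protein, rose by 0.90 ± 0.17 (adjusted p = 0.00879) and Fbn1, of elastic microfibrils, by 0.34 ± 0.10 (adjusted p = 0.0433). Postn, a protein of remodelling connective tissue, rose by 0.82 ± 0.12 (adjusted p = 0.00311). Of the 4 proteoglycans Lum, which spaces collagen fibrils, rose 2.08-fold (1.05 ± 0.17, adjusted p = 0.00478) and Vcan by 0.54 ± 0.12 (adjusted p = 0.0149), while Dcn (0.63 ± 0.28) and Bgn (0.35 ± 0.15) did not pass.

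The count at 72 h in the jejunum depended on single arrays. Calls over all probe sets without each array are not given here. The counts that follow therefore do not separate a loss of matrix calls from a general loss. Dropping 0 h replicate 1 left 17 genes, and dropping 0 h replicate 2 left 11. Dropping 72 h replicate 1 also left 11, and dropping 72 h replicate 2 left 22. Col3a1, Col4a1, Col5a2, Col6a3, Fn1, Lama5, Lamc1, Lum, Mgp, Nid1 and Postn passed in each of these and under each of 7 other settings, and all 33 genes kept their direction. Of the 22 further probe sets of the 33 genes 16 changed in the same direction, 10 of them past the test, and 6 in the opposite direction, none of them past it. Some genes with several probe sets changed less in some settings. The lowest change was 0.38 for Lama4, 0.52 for Col6a2, 0.11 for Col12a1 and 0.18 for Fbn1.

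**Figure D3:**
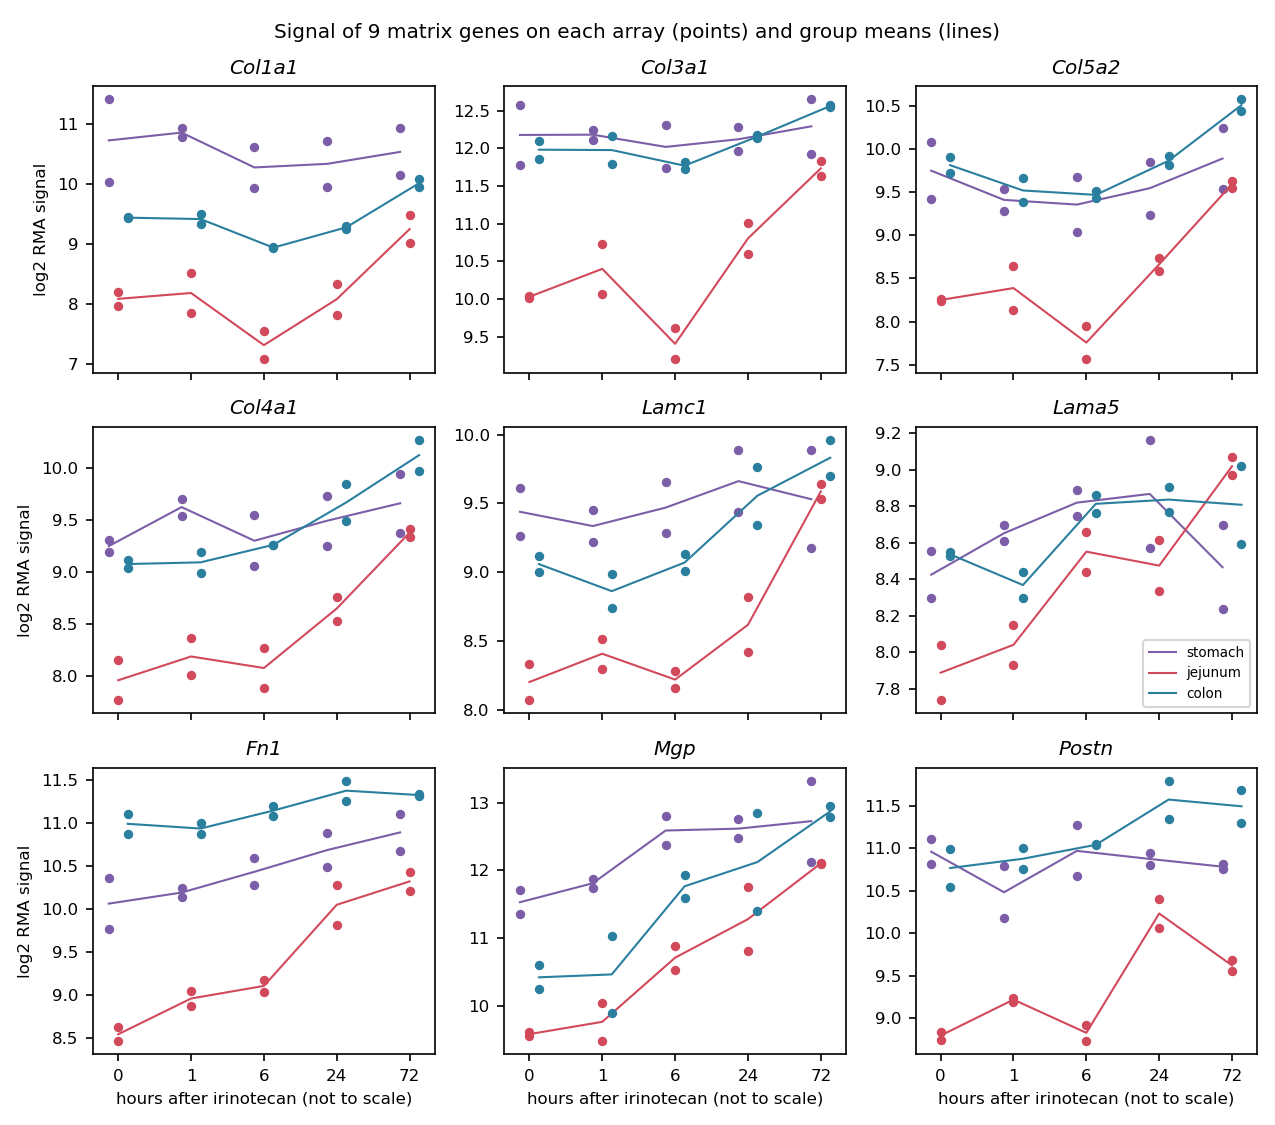
Log2 signal of 9 matrix genes on each array (points) and the mean of each group (lines) against hours after irinotecan, for stomach (purple), jejunum (red) and colon (blue); the time axis is not to scale and each panel has its own vertical range. In the jejunum Col1a1, Col3a1 and Col5a2 dip at 6 h and are highest at 72 h, Postn is highest at 24 h, and Mgp and Fn1 climb from 6 h on.

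At earlier times few of the 63 genes passed in the jejunum, and at 6 h most changes were below 0. At 1 h none of the 63 genes passed limma's test (6 at an unadjusted p under 0.05; background 0.0354% called and 4.73% unadjusted). At 6 h 2 fell and 1 rose (background 1.19% lower and 2.30% higher), and 16 of the 63 changes were above 0 (background 44.8%). Fbn1 read 7.54 and 7.44 against 8.23 and 8.01 at 0 h, a 1.55-fold fall (-0.64 ± 0.10, adjusted p = 0.0166). Nid2 read 7.83 and 7.80 against 8.35 and 8.36, a 1.45-fold fall (-0.53 ± 0.07, adjusted p = 0.00916). Lama5 was the gene that rose, from 8.04 and 7.74 to 8.44 and 8.66 (0.66 ± 0.14, adjusted p = 0.0389). Leaving out any of the 4 arrays compared ended all 3 calls. The 3 further probe sets of these genes did not pass, and 1 of them changed in the opposite direction.

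In 18 of the 63 genes both 6 h arrays lay below the other 8 jejunum arrays (background 4.51%), and in none above them (background 4.75%). They were 7 fibrillar collagens (Col1a1, Col1a2, Col3a1, Col5a1, Col5a2, Col5a3 and Col24a1), 3 proteoglycans (Bgn, Dcn and Lum), both nidogens, Sparc, Fbn1, Lama3, Col4a2, Col15a1 and Col17a1. Dcn read 9.60 and 9.90 at 6 h against 10.41 and 10.80 at 0 h (-0.85 ± 0.28, limma adjusted p = 0.14), and Col1a1 7.07 and 7.55 against 8.20 and 7.97 (-0.77 ± 0.27, adjusted p = 0.155). These 2 groups of arrays did not overlap, but the changes did not pass. When jejunum 24 h replicate 1, the array with the GAPDH gap, was left out of the fit, the same comparison called 17 genes, 13 lower (among them Dcn, Col1a1, Col1a2, Col3a1, Lum, Fbn1 and Nid2) and 4 higher (Fn1, Lama5, Lamb2 and Mgp). Over all probe sets the calls also rose without that array, from 1082 to 4228. The array serves at 6 h only through the spread shared by the 5 times.

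At 24 h 3 genes passed in the jejunum, all higher: Mgp, Fn1 and Postn (background 0.319% higher, 0.409% in either direction). Postn reached its jejunal maximum here, with 10.40 and 10.06 against 8.75 and 8.84 at 0 h, and was lower again at 72 h with 9.56 and 9.68. That later fall was 1.53-fold (-0.61 ± 0.12, limma adjusted p = 0.0133 for 72 h against 24 h). Without jejunum 24 h replicate 1 the count at 24 h was 9, adding Col3a1, Col6a1, Col6a3, Lama5, Lamc1 and Nid1, while the calls over all 31042 probe sets went from 127 to 830. Dropping the other 24 h array gave 8 of the 63 and 5133 of all probe sets, a share of the 63 below that of all, and dropping either 0 h array gave 0. On the array with the GAPDH gap Col6a1 read 8.52 and Mgp 10.81, against 9.34 and 11.75 on the other 24 h array, while Fn1 and Postn read higher on it (10.28 against 9.81, and 10.40 against 10.06). The part of RNA quality in these differences was not tested. Of the 9 fibroblast markers that are not matrix genes 2 also rose at 24 h, Vim (1.09 ± 0.11) and S100a4 (0.55 ± 0.09). Only 5 of the 9 changes were above 0 (background 46.6%), with a median of 0.06. The log2 of the summed signal of the 9 was 12.21 to 12.22 against 11.59 to 11.75 at 0 h. Their median signal was 7.68 to 7.73 against 7.64 to 7.71. None of the 10 smooth muscle markers passed (summed 14.11 to 15.03 against 14.05 to 14.29), although all 10 changes were above 0. The part of these cells in the 24 h result was not tested.

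From 24 h to 72 h in the jejunum limma called 18 of the 63 genes higher and 4 lower (background 8.77% higher and 4.15% lower). Those higher were 4 of the 11 fibrillar collagens, 1 of the 5 basement membrane collagens, 6 of the 13 laminin, nidogen and perlecan genes, 4 of the 25 other collagens, 2 of the 5 glycoproteins and 1 of the 4 proteoglycans. Col1a1 rose 2.25-fold (1.17 ± 0.27, adjusted p = 0.023), Lamc1 1.96-fold (0.97 ± 0.15, adjusted p = 0.00453), Col5a2 1.91-fold and Col3a1 1.90-fold. Col17a1 fell by 0.42 ± 0.10 (adjusted p = 0.0233), and Col26a1 and Col11a2 by 0.32 and 0.30. When 72 h replicate 1 was dropped none of the 63 passed, and 7 passed when the other 72 h array was dropped.

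Markers of other cell types were read in the jejunum at 72 h as well. The background was 11.9% higher and 12.0% lower, or 20.0% higher among probe sets above the median. Of 10 smooth muscle markers 3 rose and none fell, and all 10 changes were above 0 (median 0.61, background 40.6% above 0). The log2 of their summed signal was 14.77 to 14.88 at 72 h against 14.05 to 14.29 at 0 h. Of 9 fibroblast markers that are not matrix genes 4 rose (Pdgfra, Vim, S100a4 and Dpt), and 6 of the 9 changes were above 0 (median 0.27). The 9 had a summed signal of 12.37 to 12.38 against 11.59 to 11.75. Their median signal was 7.71 to 7.97 against 7.64 to 7.71. Of 8 macrophage markers 4 rose and 1 fell (summed 13.76 to 13.90 against 13.55 to 13.62), of 6 adipocyte markers 2 rose (10.61 to 11.27 against 10.41 to 10.42), and of 7 endothelial markers none passed (10.44 to 10.55 against 10.11 to 10.28). Of 7 enterocyte markers 1 rose and 1 fell. The median of the 43 brighter matrix genes was 8.97 and 8.61 at 72 h and 8.18 and 8.07 at 0 h. The part of cell composition in the matrix changes was not tested.

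**Figure D4:**
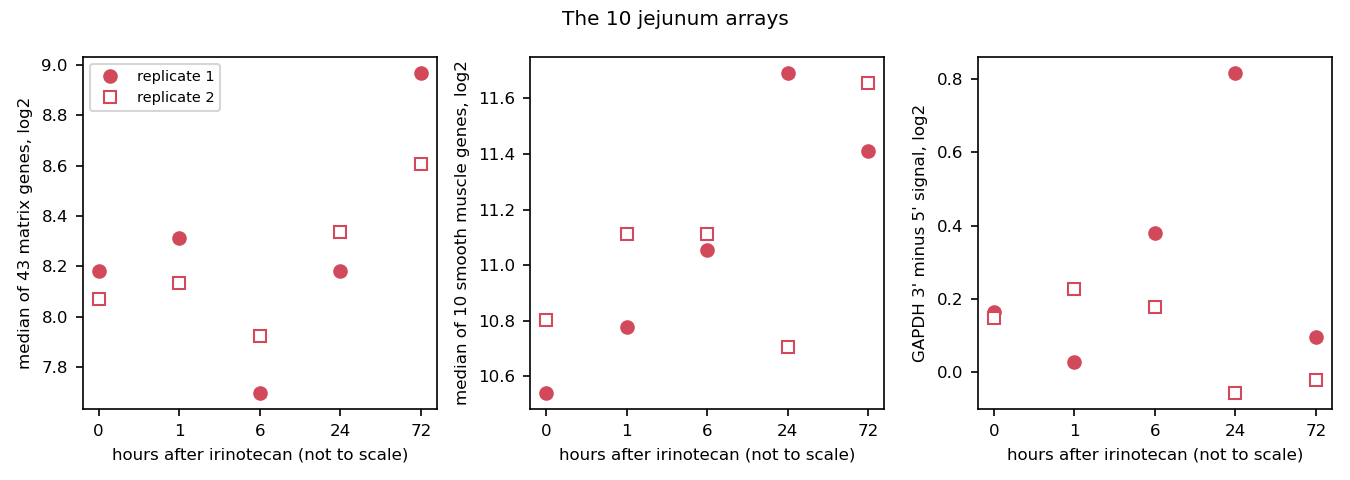
Values of each of the 10 jejunum arrays against hours after irinotecan (not to scale): the median log2 signal of the 43 brighter matrix genes, the median of 10 smooth muscle markers, and the GAPDH 3′ minus 5′ control signal; filled circles are replicate 1 and open squares replicate 2. Matrix signal is lowest at 6 h and highest at 72 h, and replicate 1 at 24 h has a smooth muscle median of 11.69, a GAPDH gap of 0.82 and a matrix median of 8.18.

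In the colon fewer matrix genes passed at 72 h than in the jejunum, and so did fewer of all probe sets (411 against 7405). The counts alone therefore do not show a smaller response. Limma called 8 of the 63 higher and none lower (background 0.892% higher and 0.432% lower, 1.32% in either direction). They spanned all the roles: Col1a1 and Col5a2 of the fibrils, Col4a1 and Lamc1 of the basement membrane, Col6a1, Col18a1, Mgp and Vcan. Each of these 8 had also risen in the jejunum. The median change over the 63 genes was 0.27, against -0.02 over all probe sets, and in 17 genes both 72 h arrays exceeded the other 8 colon arrays (background 8.61%).

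Mgp had the largest rise, with 12.95 and 12.79 at 72 h against 10.61 and 10.25 at 0 h, 5.45-fold (2.44 ± 0.43, limma adjusted p = 0.0276). Vcan, a large proteoglycan of loose provisional matrix, read 8.15 and 7.40 against 6.42 and 6.70, a 2.33-fold rise (1.22 ± 0.21, adjusted p = 0.0257). Col4a1 read 10.27 and 9.98 against 9.04 and 9.12, a 2.06-fold rise (1.05 ± 0.14, adjusted p = 0.0146). For all 3 the 72 h and 0 h arrays did not overlap, and for Vcan and Col4a1 both 72 h arrays exceeded the rest of the colon arrays. Col6a1 rose by 0.91 ± 0.18 (adjusted p = 0.04), Col18a1 by 0.80 ± 0.15, Lamc1 by 0.77 ± 0.16, Col5a2 by 0.70 ± 0.12 and Col1a1 by 0.57 ± 0.10. Dcn (1.25 ± 0.37, adjusted p = 0.127) and Col6a2 (0.92 ± 0.21, adjusted p = 0.0677) had changes as large as some of these and did not pass.

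The refits of the colon at 72 h that follow are given without their calls over all probe sets. Colon 72 h replicate 2 is the array with pancreatic transcripts. Without it limma called 9 genes, among them Mgp, Vcan, Col4a1, Lamc1, Col18a1, Col5a2 and Col1a1. Without both this array and colon 6 h replicate 1 it called 4 (Col18a1, Col4a1, Lama1 and Vcan). Each of the 8 calls was lost when either 0 h array was dropped, and all but those of Col4a1 and Vcan when 72 h replicate 1 was dropped. Adipocyte markers were also higher at 72 h in the colon, with a summed log2 signal of 11.07 to 12.74 against 9.58 to 9.63 at 0 h, although none of the 6 passed, and 1 of 8 macrophage markers rose (Cd163; summed 12.37 to 12.74 against 11.53 to 11.85). The fibroblast markers summed to 13.03 to 13.13 against 12.36 to 12.63 and the endothelial markers to at least 10.96 against at most 10.61, with changes above 0 in 6 of 9 and in 7 of 7, none of which passed. No smooth muscle marker passed (15.44 to 15.49 against 15.55 to 15.64). The part of these cells and tissues in the colon result was not tested.

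Earlier times in the colon gave few calls. At 1 h none of the 63 genes passed limma's test (9 at an unadjusted p under 0.05; background 0% called and 14.9% unadjusted). At 6 h Col1a1 was the single gene called, with 8.94 and 8.93 against 9.44 and 9.43 (-0.50 ± 0.10, adjusted p = 0.0473; background 0.986% lower and 0.200% higher), and that call ended when any of the 4 arrays was left out. At 24 h no gene passed (16 at an unadjusted p under 0.05; background 1.14% called and 16.7% unadjusted), although 47 of 63 changes were above 0 (background 55.3%) and in 35 genes the 24 h arrays lay above those at 0 h (background 28.2%). In both colon and jejunum the Col1a1 values were lowest at 6 h and highest at 72 h, though its 6 h change in the jejunum did not pass. In the colon Col1a1 rose 1.67-fold from 24 h to 72 h (0.74 ± 0.10, limma adjusted p = 0.00608).

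From 24 h to 72 h limma called 9 of the 63 genes higher and 2 lower in the colon (background 4.40% higher and 2.33% lower). Of the arrays compared, 24 h replicate 1 is the one with high gastric epithelium markers and 72 h replicate 2 the one with pancreatic transcripts. Besides Col1a1 the genes that rose were Col6a5, Vcan, Col18a1, Col5a2, Bgn, Fbn1, Nid2 and Col13a1. Lamb3, the epithelial laminin chain, fell 1.74-fold (-0.80 ± 0.21, adjusted p = 0.0473) and Col19a1 fell by 0.47. Nid2 rose here by 0.45 ± 0.12 (adjusted p = 0.0483), whereas it had fallen in the jejunum against 0 h, and the difference between these 2 comparisons was not tested. Dropping 24 h replicate 1 left 1 gene, and dropping 72 h replicate 1 or 2 left 3 or 6.

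**Figure D5:**
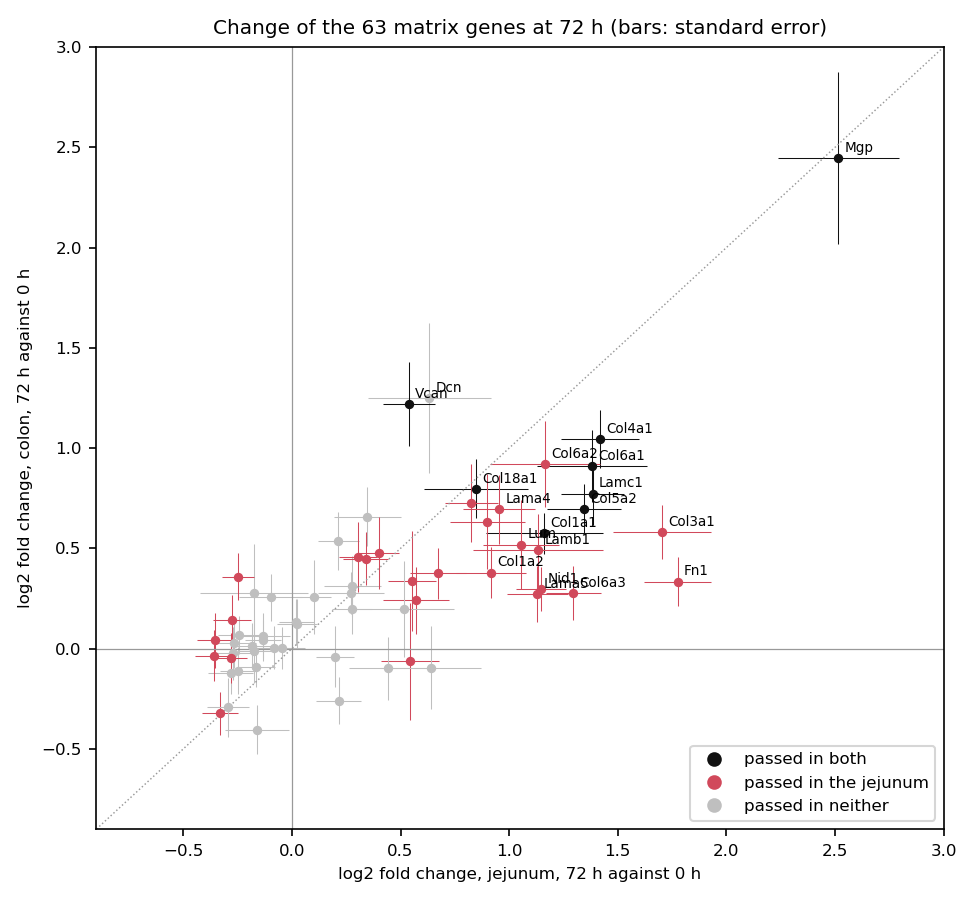
Log2 change at 72 h of the 63 matrix genes in the jejunum (horizontal) and colon (vertical), each against its own 0 h arrays, with standard errors as bars; the dotted line marks equal change. The 8 genes that passed in both tissues (black) lie right of and above 0, Mgp lies near the line of equal change, Fn1 and Col3a1 lie far below it and Vcan above it.

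In the stomach none of the 63 matrix genes passed limma's test at any time against 0 h (background 0.0161%, 0.0322%, 0.0161% and 0.00644% at 1, 6, 24 and 72 h). At an unadjusted p under 0.05 there were 2, 4, 4 and 9 genes, against 5.72%, 8.83%, 8.34% and 7.56% of all probe sets. Mgp had the largest changes, with 12.38 and 12.80 at 6 h, 12.47 and 12.76 at 24 h and 12.13 and 13.32 at 72 h against 11.36 and 11.71 at 0 h. Its arrays at these times did not overlap with those at 0 h, but the changes of 1.06, 1.08 and 1.19 did not pass (adjusted p = 0.4, 0.571 and 0.656). None of the 63 passed from 24 h to 72 h (5 at an unadjusted p under 0.05; background 0.00322% called). Without stomach 72 h replicate 1, the array with most pancreatic transcripts, the change at 72 h was 1.79 for Mgp and 0.87 for Col8a1 of vessel walls. These rest on the 1 remaining array, whose spread is assumed to be that of the other groups. The acinar median of that array was itself 8.58, against at most 7.38 at 0 h. Fn1 read 10.68 and 11.10 at 72 h against 9.76 and 10.36 (0.83 ± 0.23, adjusted p = 0.656). The stomach arrays also held unequal amounts of squamous epithelium, the lining of the rat's forestomach: the median of 6 markers was 7.31 and 9.95 at 0 h and 8.12 and 11.63 at 72 h. Col1a1 read 10.03 and 11.41 on the same 0 h arrays and 10.14 and 10.92 on those at 72 h, so in both groups the array with more squamous signal had the higher Col1a1. None of the 6 markers passed at 72 h, nor did any of the 10 pancreatic, 8 macrophage or 6 adipocyte markers, and the part of these tissues in the stomach values was not tested.

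Whether a gene's change differed between the 3 tissues was tested directly, with an F test in the limma fit of all 30 arrays, which treats tissues of the same rats as independent. At 1, 6 and 24 h none of the 63 genes differed (background 0.00322%, 0.251% and 0.229%). At 72 h Fn1 did (background 2.28%): it changed by 1.78 in jejunum, 0.83 in stomach and 0.33 in colon (F = 14.6, adjusted p = 0.0205). The next were Lama5 (1.13, 0.04 and 0.27, adjusted p = 0.0511), Col3a1 (1.70, 0.11 and 0.58, adjusted p = 0.0592) and Lamc1 (1.38, 0.09 and 0.77, adjusted p = 0.0619), each in the order jejunum, stomach and colon. For the other genes that passed in 1 tissue and not in another, a difference between tissues was not shown. Refits of this test were counted for the 63 genes only, so the counts that follow have no background beside them. Dropping either jejunum 72 h array ended the call for Fn1. Dropping stomach 72 h replicate 1 or 2 gave 3 or 9 genes, and dropping colon 72 h replicate 1 or 2 gave 4 or 6.

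The enzymes that make and cross-link collagen were read beside the matrix genes. Of 24 such genes measured 12 rose and 1 fell in the jejunum at 72 h, with a median change of 0.31 against -0.07 over all probe sets (background 11.9% higher and 12.0% lower, or 20.0% higher among probe sets above the median). Serpinh1, the chaperone of collagen folding, read 10.00 and 9.87 against 8.88 and 8.75 at 0 h (1.12 ± 0.14), and had already risen at 24 h (1.01 ± 0.14). Plod2 and P4ha1, which hydroxylate lysine and proline of collagen, rose by 0.93 and 0.79 at 72 h and by 0.72 and 0.68 at 24 h. The cross-linking enzymes Loxl2, Loxl1 and Lox rose by 0.71, 0.62 and 0.49, while P4hb, a disulphide isomerase that also serves other proteins, fell by 0.36. In the colon at 72 h 2 of the 24 rose (background 0.892%), Serpinh1 (1.05 ± 0.21) and Plod2 (0.79 ± 0.15).

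Of 25 proteases and inhibitors that act on the matrix 11 rose and none fell in the jejunum at 72 h, against the same background of 11.9% and 12.0%. Plat, tissue plasminogen activator, rose most (2.66 ± 0.16), and the gelatinase Mmp2 (1.44 ± 0.37), its activator Mmp14 (0.88 ± 0.10), Timp2 (1.74 ± 0.14), which inhibits it, and Adamts1, a protease of versican (1.64 ± 0.16), rose as well. In the colon 7 of the 25 rose and none fell (background 0.892% and 0.432%), among them Adamts1 (1.99 ± 0.23) and Mmp2 (1.50 ± 0.24). Of 22 matrix receptors 12 rose and 1 fell in the jejunum at 72 h (background 11.9% higher and 12.0% lower). These included the integrin chains Itgb6 (0.94 ± 0.14), Itgav (0.93 ± 0.13) and Itgb1 (0.71 ± 0.08) and the hyaluronan receptor Cd44 (0.83 ± 0.10), while Itga3, an epithelial receptor of laminin, fell by 0.30. In the colon 1 of the 22 rose (background 0.892%), Itgb6 (0.77 ± 0.15). Of 19 genes of the TGF-beta pathway, which drives matrix synthesis, 4 rose in the jejunum (Ltbp1 by 1.17, Tgif1 by 0.81, Ccn1 by 0.80 and Smad2 by 0.39) and none in the colon, a share in the jejunum close to the 20.0% of probe sets above the median that rose.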

How the data were processed

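The authors deposited log2 signals, and the submitters' processing notes name RMA. The labels give neither the version nor whether the 30 arrays were normalized in 1 run. Group and replicate came from the sample titles. Array medians ran from 6.97 to 7.06, so no scaling was added. The array holds 31099 probe sets, from which 57 controls were removed. The remaining 31042 were tested, of which 20826 carried 1 gene symbol, 436 several and 9780 none; only the first were named.

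Within a tissue, 1 limma 3.58.1 fit (R 4.3.3) on 10 arrays with 5 means gave each time against 0 h and 72 h against 24 h. Tissues were compared in 1 fit of 30 arrays with 15 means. Tests were two-sided, Benjamini-Hochberg adjustment ran over all 31042 probe sets, the threshold was 0.05, and errors are standard errors. The script was checked on simulated data. The genes, 10 marker lists and 4 pathway lists were chosen with earlier results of these data known. The genes that passed were named first, then the highest and lowest of the rest. Alternatives dropped dim probe sets, normalized by quantiles, used trended robust variances, pooled all arrays, added a replicate block, averaged a gene's probe sets or left out arrays. Equal replicate numbers are not stated to share rats.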

Additional observations from a re-analysis of the deposited data

Results flagged for a closer look

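Fn1 was the 1 gene of the 63 whose response at 72 h differed between the 3 tissues by a direct test (limma F test, adjusted p = 0.0205). The same test called 708 of all 31042 probe sets (2.28%). In this main fit the matrix genes were thus not called more often than probe sets in general. Some refits given below called more of the 63, and their share of all probe sets was not counted. The call for Fn1 ended when either jejunum 72 h array was dropped. Both jejunum 72 h arrays (10.21 and 10.43) lay above both 0 h arrays (8.62 and 8.46), as did the stomach arrays (10.68 and 11.10 against 9.76 and 10.36) and the colon arrays (11.33 and 11.31 against 11.11 and 10.87). The jejunal change passed against 0 h, while the changes in stomach (0.83) and colon (0.33) did not. Groups of 2 arrays are too small for a check of outlying samples.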

How the results depend on the processing

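Genes named for a change from 0 h kept their direction in each refit: they stayed past the threshold in 345 cases and did not in 178. Counts of matrix genes passing in each comparison stayed within 1.5 times in 135 refits that left out no single replicate, and did not in 27. The 27 follow, and the cause was not tested unless fewer arrays are the change itself. With 1 fit of all 30 arrays the count was 2 in stomach at 6 h, 1 in jejunum at 6 h, 2 in colon at 24 h, 3 in colon at 72 h, and for 72 h against 24 h 1 in stomach, 12 in jejunum and 6 in colon. With quantile normalization it was 12 in jejunum for 72 h against 24 h, 1 in colon at 24 h, and 2 for differences between tissues at 72 h. For the call in colon at 6 h the count was 0 with quantiles, trended variances, 1 fit, the block, the mean of a gene's probe sets and without the arrays with pancreatic transcripts. In colon at 72 h the mean of a gene's probe sets gave 5. Without the arrays with a GAPDH gap the count was 17 in jejunum at 6 h, 9 at 24 h and 7 for differences between tissues at 72 h. Without those with pancreatic transcripts it was 2 in stomach at 72 h, 1 in colon at 24 h, 4 at 72 h, 5 for 72 h against 24 h, and 7 for differences between tissues. With dim probe sets dropped 3 differed between tissues.

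Leaving out 1 array at a time gave 0 to 2 genes in stomach at 72 h, 0 to 0 in jejunum at 6 h, 0 to 9 at 24 h, 11 to 22 at 72 h and 0 to 31 for 72 h against 24 h. In colon it gave 0 to 0 at 6 h, 0 to 2 at 24 h, 0 to 9 at 72 h and 1 to 13 for 72 h against 24 h. It gave 9 to 16 for colon against stomach at 0 h and 0 to 9 for differences between tissues at 72 h.

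With the replicate number as a block 3 genes passed in colon at 72 h and 29 in jejunum at 72 h. The numbers were not shown to pair the arrays: deviations of equal numbers correlated at -0.58 to 0.43 within a tissue and at -0.22 to 0.50 between tissues of a time. Over all probe sets the block moved the calls from 1082 to 604 in jejunum at 6 h, from 127 to 27 at 24 h and from 411 to 247 in colon at 72 h.

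Over all probe sets, calls in jejunum went from 1082 to 4228 at 6 h, from 127 to 830 at 24 h and from 7405 to 11744 at 72 h without the array with the GAPDH gap. With 1 fit of all 30 arrays they went from 127 to 69 in jejunum at 24 h, from 368 to 737 in colon at 6 h, from 355 to 897 at 24 h, from 411 to 787 at 72 h and from 2088 to 3568 for 72 h against 24 h. In stomach they were at most 10 at any time and up to 396 with 1 fit, and 321 at 72 h without the pancreatic array. Dropping dim probe sets or averaging a gene's probe sets tests fewer features, and gave 4271 and 3964 calls in place of 7405 in jejunum at 72 h and 257 and 211 in place of 411 in colon at 72 h. At 0 h averaging gave 5660 calls in place of 9985 for jejunum against stomach, 5621 in place of 10277 for colon against stomach and 6672 in place of 14190 for jejunum against colon. Quantile normalization turned 714 higher and 368 lower in jejunum at 6 h into 600 and 442, 99 and 28 at 24 h into 99 and 38, 90 and 265 in colon at 24 h into 127 and 229, and 1365 and 723 for colon 72 h against 24 h into 1116 and 1029. With 2 pools a group, a gene that did not pass may still have changed.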
